A study of Mus musculus with 8 samples.

Results

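The insulin-like growth factor (IGF) axis was followed through 10 genes, namely the binding protein genes Igfbp2, Igfbp3, Igfbp4, Igfbp5, Igfbp6 and Igfbp7, the receptor genes Igf1r, Igf2r and Ghr, and the receptor adaptor gene Grb10. Every probe that the array annotation assigned to 1 of these symbols was taken and kept apart, which gave 10 of 19057 symbols and 27 of the 45281 probes on each array. The cells were pre-iPSCs, which are cells halted partway to induced pluripotency. They were female, of strain 129/MF1 and of neural stem cell origin, carried an Oct4 reporter with GFP and puromycin resistance, and grew on gelatin in serum medium with LIF. All groups were stable drug-selected populations made with PiggyBac vectors driven by the CAG promoter, taken at day 0. They were Nanog+Sin3a (both transgenes), Nanog (Nanog plus an empty vector), Sin3a (Sin3a plus an empty vector) and EV (empty vectors), with 2 arrays each. The labels call the arrays of a group replicates and name no separate cultures, so every test here measures the spread between arrays only, and 2 arrays per group limit the precision of each value.

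The genes were chosen by family and with the values of these same arrays already known, among them the differences of Ghr, Igfbp6 and Grb10 between the transgene groups and EV. Their levels and differences are therefore given as a description, with no p-value for any single probe. A probe is said to be called where its adjusted p in a limma fit over all tested probes was under 0.05, and calls of the 10 genes are printed beside the share of all probes called in the same comparison.

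As background, IGF1 and IGF2 are secreted growth factors that act through the tyrosine kinase receptor encoded by Igf1r. The binding proteins hold the ligands in the medium or on the matrix, where they prolong, store or withhold them, and proteases release the ligands again. Igf2r takes up and degrades IGF2, Ghr is the receptor through which growth hormone drives Igf1 transcription in liver, and the product of Grb10 binds the active IGF1 and insulin receptors and dampens their signal.

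Of the 27 probes, 14 lay above an intensity of 16 (4 on the log2 scale, called the floor) on at least 2 of the 7 arrays fitted, and these 14 were tested. They stood for 8 of the 10 genes. The other 13 probes read between -19.7 and 27.7 on the 7 arrays, and 3 of them passed the floor on 1 array each. Both Igfbp2 probes and both Igfbp4 probes were among those 13, with highest readings of 27.7 (the first Sin3a array) and 19.2 (a Nanog+Sin3a array). No difference is given for either gene.

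The array left out of the fit was the second Sin3a array. The Sin3a arrays were over 1 apart on the log2 scale in 78.8% of 7740 probes of middle intensity (log2 means of 5 to 8), against 0.271% between the EV arrays, and at a mean of 9 or above the figures were 0.224% and 0.0373%. No probe of the 10 genes had a mean above 9. The Sin3a group therefore rests on 1 array, assumed to vary like the arrays of the other groups. The second array's values are given here or with the probe concerned. It read 11.1 in Igfbp5 probe 1 and -6.7, -8.8 and 12.3 in Igf1r probes 1, 2 and 3. In Igf2r probes 1 and 2 it read -0.7 and -6.1, in Ghr probe 2 1.5 and in Grb10 probe 2 -5.4. One Nanog probe read 289.5 and 285.2 with Nanog+Sin3a and 364.8 and 485.8 with Nanog, against -7.3 and -12.2 with Sin3a and -3.6 and -5.4 with EV. The other Nanog probe did not separate the groups, with 5.6, 13.6, 21 and 13 on the 4 arrays with the transgene and 10.2, -4.8, 14.4 and 13.8 on the 4 without. The Sin3a probe read 1484.7 and 1483.3 with Nanog+Sin3a and 1182.1 and 1141.6 with Sin3a, against 344.4 and 472.5 with Nanog and 329.3 and 261.8 with EV.

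**Figure D1:**
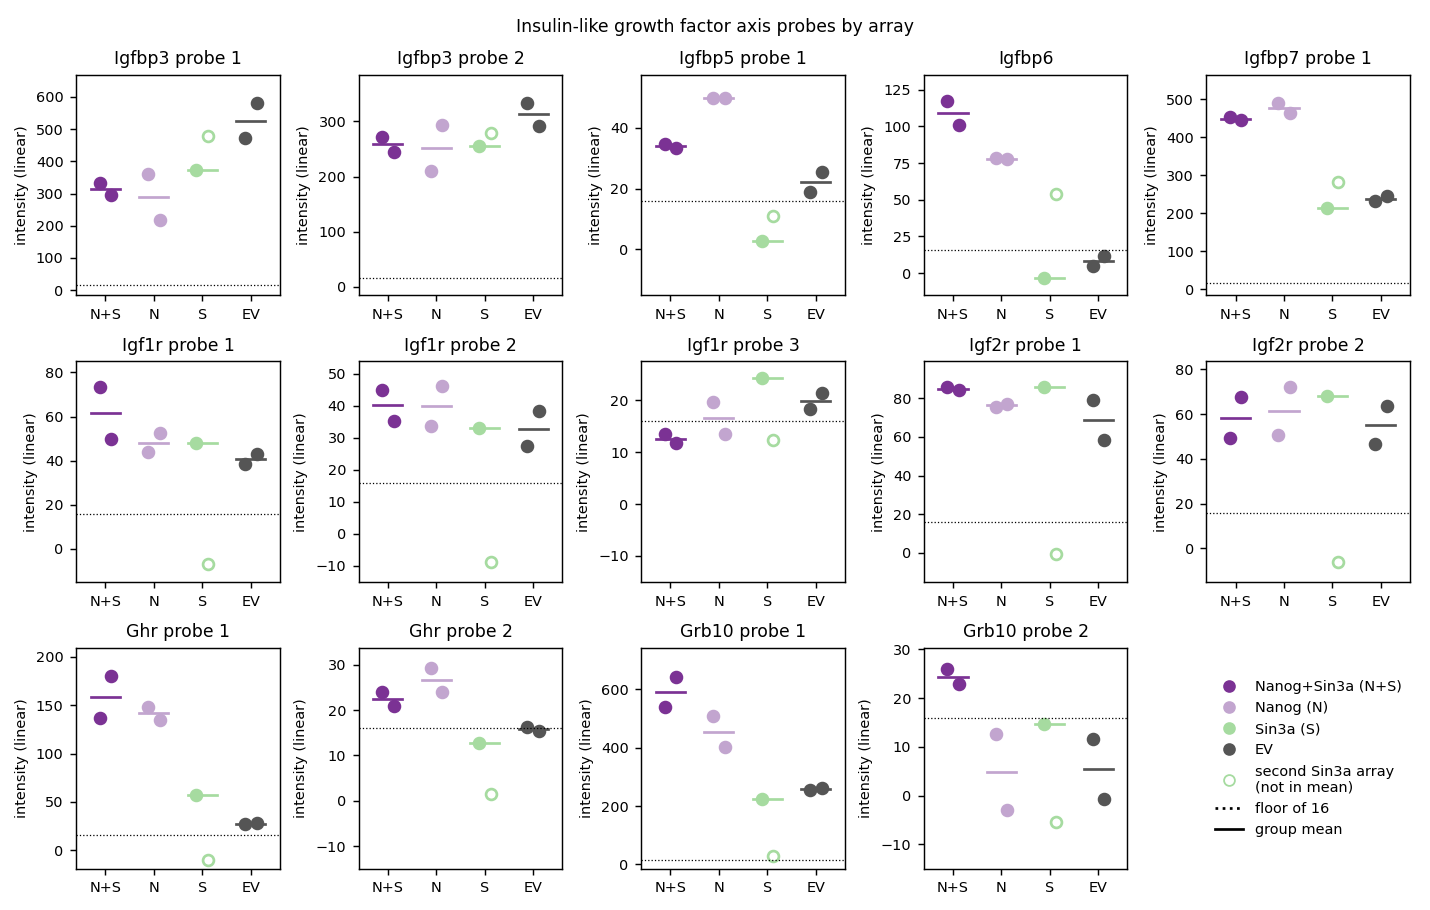
Intensity (vertical axis, linear, background-subtracted) of the 14 tested IGF axis probes on each array, 1 panel per probe, with the groups Nanog+Sin3a, Nanog, Sin3a and EV from left to right. Points are arrays, horizontal bars group means, the open point the second Sin3a array, which is not in the mean, and the dotted line the floor of 16. Igfbp6, Igfbp7 probe 1, Ghr probe 1 and Grb10 probe 1 are higher on all 4 arrays with the Nanog transgene than on both EV arrays and the first Sin3a array.

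The clearest pattern across the 10 genes followed the Nanog transgene. In 6 of the 14 tested probes all 4 arrays with Nanog (alone or with Sin3a) read higher than all 3 arrays without it, and in 1 of 14 all 4 read lower. Over all 18558 tested probes the shares were 11.3% higher and 12.2% lower. The 6 were Igfbp5 probe 1, Igfbp6, Igfbp7 probe 1, Ghr probes 1 and 2 and Grb10 probe 1, and the other was Igfbp3 probe 1. Among the 7 arrays Igfbp6 passed the floor only on the 4 with Nanog. It was therefore tested only through the groups where it was high, and could only come out higher. Since the genes were picked with these values known, the counts describe the probes and support nothing further. In these bulk samples, more cells with a transcript and more transcript per cell cannot be told apart.

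Among the binding proteins, Igfbp6 encodes a secreted protein that prefers IGF2 over IGF1. Its single probe read 117 and 100.9 with Nanog+Sin3a and 78.2 and 77.4 with Nanog, against -3.2 on the first Sin3a array and 5.0 and 11.7 with EV. The order of the groups was Nanog+Sin3a, then Nanog, then Sin3a and EV together at the floor, and the arrays of Nanog+Sin3a and Nanog did not overlap. On the log2 scale Igfbp6 was higher than EV by 2.76 with Nanog+Sin3a (SE 0.19) and by 2.28 with Nanog (SE 0.19), and both were called. As EV lay at the floor, these are lower bounds, at least 6.79-fold and at least 4.86-fold. They depend on where the floor is put, and with a floor of 32 they read 1.76 and 1.28. The Nanog+Sin3a group was 0.48 above Nanog (SE 0.19), which was not called. The left-out Sin3a array read 54.0, above EV.

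The promoter window of Igfbp6 is shown because Igfbp6 had the widest range of group means of the 14 probes. It comes from RefSeq and runs from 250 bases before to 50 bases after the annotated start, on the plus strand at chr15:102143936-102144235 (GRCm38.p6). Capitals mark the letters TATAAA of the TATA box, CCAAT of the box of that name and GGGCGG of the GC box, each searched on both strands.

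Igfbp6 promoter: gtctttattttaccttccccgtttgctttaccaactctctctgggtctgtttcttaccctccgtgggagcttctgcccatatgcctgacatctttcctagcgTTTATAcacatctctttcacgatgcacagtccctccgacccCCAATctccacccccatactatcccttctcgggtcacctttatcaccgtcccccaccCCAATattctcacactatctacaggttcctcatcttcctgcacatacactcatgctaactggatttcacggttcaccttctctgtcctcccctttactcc

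This window held 1 TATAAA and 2 CCAAT matches, no GGGCGG and 8 CpG dinucleotides. Of all 32851 promoter windows in the table, 13.6% held TATAAA, 37.4% CCAAT and 35.7% GGGCGG, and the median CpG count was 7. A match is only a match of letters, and no factor binding was measured here.

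Igfbp7 encodes a secreted relative of the binding proteins that binds IGFs weakly and is also found in the matrix. Probe 1 read 453.6 and 445.4 with Nanog+Sin3a and 490.4 and 465.0 with Nanog, against 213.2 on the first Sin3a array and 231.9 and 245.4 with EV. The arrays with Nanog stood clear of those without it, and the Nanog arrays lay just above the Nanog+Sin3a arrays. The probe was higher than EV by 0.91 on the log2 scale with Nanog+Sin3a (SE 0.09, 1.88-fold) and by 1.00 with Nanog (SE 0.09, 2.00-fold), both called. The second Sin3a array read 282.1, between the EV arrays and the arrays with Nanog. The other 4 probes annotated to Igfbp7 read between -18.1 and 11.7 on the 7 arrays, so the statement on this gene rests on 1 of its 5 probes.

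The Igfbp7 promoter window, shown beside that of Igfbp6 as the other binding protein gene with a called probe, lies on the minus strand at chr5:77407996-77408295 (GRCm38.p6), with capitals as before.

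Igfbp7 promoter: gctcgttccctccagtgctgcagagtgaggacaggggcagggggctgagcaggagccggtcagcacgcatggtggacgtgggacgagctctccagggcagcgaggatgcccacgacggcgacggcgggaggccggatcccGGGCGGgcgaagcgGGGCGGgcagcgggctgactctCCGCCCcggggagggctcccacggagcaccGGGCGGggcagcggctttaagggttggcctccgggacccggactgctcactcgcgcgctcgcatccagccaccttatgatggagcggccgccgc

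It held 4 GGGCGG matches, no TATAAA or CCAAT, and 33 CpG dinucleotides, a count that 92.3% of all windows did not exceed. The 13 windows listed for the 10 genes held 8 to 48 CpG dinucleotides with a median of 23. TATAAA was found in 3 of them, CCAAT in 3 and GGGCGG in 6. The 4 genes with called probes thus shared no single 1 of these letter strings across their windows.

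Igfbp5 encodes a binding protein that attaches to the extracellular matrix. Probe 1 read 34.6 and 33.4 with Nanog+Sin3a and 49.9 and 49.8 with Nanog, against 2.9 on the first Sin3a array and 19 and 25.5 with EV. The 4 groups did not overlap, in the order Nanog, Nanog+Sin3a, EV and Sin3a, but all readings were close to the floor. The difference from EV was 0.63 (SE 0.22) with Nanog+Sin3a and 1.18 (SE 0.22) with Nanog on the log2 scale, and neither was called. With Nanog it was called with a floor of 32 (0.64), with 1 probe per symbol, with array weights over 8 arrays and without the first Sin3a array. The other 2 Igfbp5 probes read between -14.7 and 15.5 on the 7 arrays.

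Igfbp3 encodes the main IGF carrier of serum and was the binding protein gene whose values were lower with the transgenes. Probe 1 read 333.9 and 295.4 with Nanog+Sin3a, 360.3 and 216.4 with Nanog and 371.6 and 479.8 on the Sin3a arrays, against 473.0 and 580.2 with EV. Its difference from EV was -0.74 with Nanog+Sin3a and -0.91 with Nanog (SE 0.24 each), and neither was called, though that of Nanog was in the fit of 8 arrays with array weights. The log2 values of the Nanog arrays had an SD of 0.52 (n = 2), the widest spread of a group in this probe. Probe 2 read 272.1 and 244.3 with Nanog+Sin3a, 209.3 and 293.6 with Nanog and 254.7 and 278.1 on the Sin3a arrays, against 334.1 and 291.8 with EV. Here the differences were -0.28 with Nanog+Sin3a and -0.33 with Nanog (SE 0.18 each), the Nanog and EV arrays overlapped, and nothing was called.

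Among the receptors, Ghr probe 1 showed the widest range after Igfbp6. It read 136.8 and 180.5 with Nanog+Sin3a and 148.6 and 134.9 with Nanog, against 56.7 on the first Sin3a array and 26.6 and 28.4 with EV. The Nanog+Sin3a and Nanog arrays overlapped, and the first Sin3a array lay between them and EV. The probe was 5.72-fold above EV with Nanog+Sin3a (log2 2.52, SE 0.19) and 5.15-fold with Nanog (log2 2.36, SE 0.19), both called. The first Sin3a array was above EV by 1.04 (SE 0.23), which was not called, and the second Sin3a array read -9.8.

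Ghr probe 2, annotated to another transcript of the gene, read 23.9 and 20.8 with Nanog+Sin3a and 29.2 and 24.0 with Nanog, against 12.7 on the first Sin3a array and 16.2 and 15.5 with EV. It moved the same way within a few units of the floor, by 0.47 with Nanog+Sin3a and 0.72 with Nanog (SE 0.19 each), and was not called. The difference with Nanog was called in the fit of 8 arrays with array weights. Probe 3 read between -17.0 and -2.2 on the 7 arrays.

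RefSeq listed 2 starts for Ghr and 2 for Grb10, and the outermost start of each is shown so that the windows of all 4 genes with called probes can be set side by side. That of Ghr lies at chr15:3583303-3583602 and that of Grb10 at chr11:12037371-12037670, both on the minus strand (GRCm38.p6), with capitals as before. The Ghr window held 2 CCAAT and 2 GGGCGG matches and 23 CpG dinucleotides. The Grb10 window held 5 GGGCGG matches and 45 CpG dinucleotides.

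Ghr promoter: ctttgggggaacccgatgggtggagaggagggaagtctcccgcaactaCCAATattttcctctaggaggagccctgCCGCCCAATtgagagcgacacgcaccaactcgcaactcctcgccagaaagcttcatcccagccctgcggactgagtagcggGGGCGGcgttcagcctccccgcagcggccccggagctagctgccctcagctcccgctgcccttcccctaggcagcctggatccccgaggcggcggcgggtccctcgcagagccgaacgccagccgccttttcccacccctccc

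Grb10 promoter: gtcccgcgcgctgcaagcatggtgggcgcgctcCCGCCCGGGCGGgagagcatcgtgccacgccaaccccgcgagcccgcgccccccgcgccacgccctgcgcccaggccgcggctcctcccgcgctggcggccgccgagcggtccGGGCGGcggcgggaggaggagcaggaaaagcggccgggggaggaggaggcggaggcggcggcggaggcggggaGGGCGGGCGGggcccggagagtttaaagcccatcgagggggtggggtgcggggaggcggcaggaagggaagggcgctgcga

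Igf1r, the signalling receptor itself, had no called probe. Probe 1 read 73.3 and 49.6 with Nanog+Sin3a, 43.9 and 52.5 with Nanog and 47.9 on the first Sin3a array, against 38.4 and 42.9 with EV. The difference from EV was 0.57 with Nanog+Sin3a and 0.24 with Nanog (SE 0.25 each), neither called, and the arrays of Nanog+Sin3a and Nanog overlapped each other but not those of EV. Probe 2 read 44.9 and 35.3 with Nanog+Sin3a, 33.7 and 46.2 with Nanog and 32.9 on the first Sin3a array, against 27.3 and 38.4 with EV, and the groups overlapped. Its differences were 0.30 with Nanog+Sin3a and 0.29 with Nanog (SE 0.28 each). Probe 3 read 13.6 and 11.7 with Nanog+Sin3a, 19.8 and 13.5 with Nanog and 24.4 on the first Sin3a array, against 18.3 and 21.4 with EV. These readings straddled the floor, and both Nanog+Sin3a arrays lay under it, so that the difference of -0.31 from EV is a bound (lower by at least that much). For Nanog the difference was -0.15 (SE 0.19). Probe 4 passed the floor on 1 array.

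Igf2r, the clearance receptor for IGF2, had no called probe either. Probe 1 read 85.7 and 84.0 with Nanog+Sin3a, 75.5 and 77.2 with Nanog and 85.7 on the first Sin3a array, against 79.0 and 58.5 with EV. Probe 2 read 49.2 and 67.5 with Nanog+Sin3a, 50.8 and 72.1 with Nanog and 68.1 on the first Sin3a array, against 46.7 and 63.7 with EV. The differences from EV were 0.32 and 0.17 (SE 0.19 each) in probe 1 and 0.08 and 0.15 (SE 0.28 each) in probe 2, for Nanog+Sin3a and Nanog in that order. Differences of the size of these errors could not have been seen.

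Grb10, the adaptor gene, is imprinted. Its probe 1 read 540.8 and 642.7 with Nanog+Sin3a and 508.9 and 401.9 with Nanog, against 223.8 on the first Sin3a array and 255.6 and 261.6 with EV. The groups followed the order Nanog+Sin3a, Nanog, EV and Sin3a without overlap. With Nanog+Sin3a the probe was 2.28-fold above EV (log2 1.19, SE 0.14), which was called, and with Nanog 1.75-fold (log2 0.81, SE 0.14), which was not. The difference with Nanog was called with a floor of 32, with 1 probe per symbol, with array weights over 8 arrays and without the first Sin3a array. The direct difference of Nanog+Sin3a from Nanog was 0.38 (SE 0.14) and was not called. The second Sin3a array read 28.4.

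Grb10 probe 2 read 25.9 and 22.9 with Nanog+Sin3a and 12.6 and -3.0 with Nanog, against 14.7 on the first Sin3a array and 11.7 and -0.6 with EV. Only the Nanog+Sin3a arrays of the 7 passed the floor, and the bound on the difference from EV, 0.61 (SE 0.16), was not called. In the fit of 8 arrays with array weights it was called. Probe 3 read between -17.4 and -6.4.

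**Figure D2:**
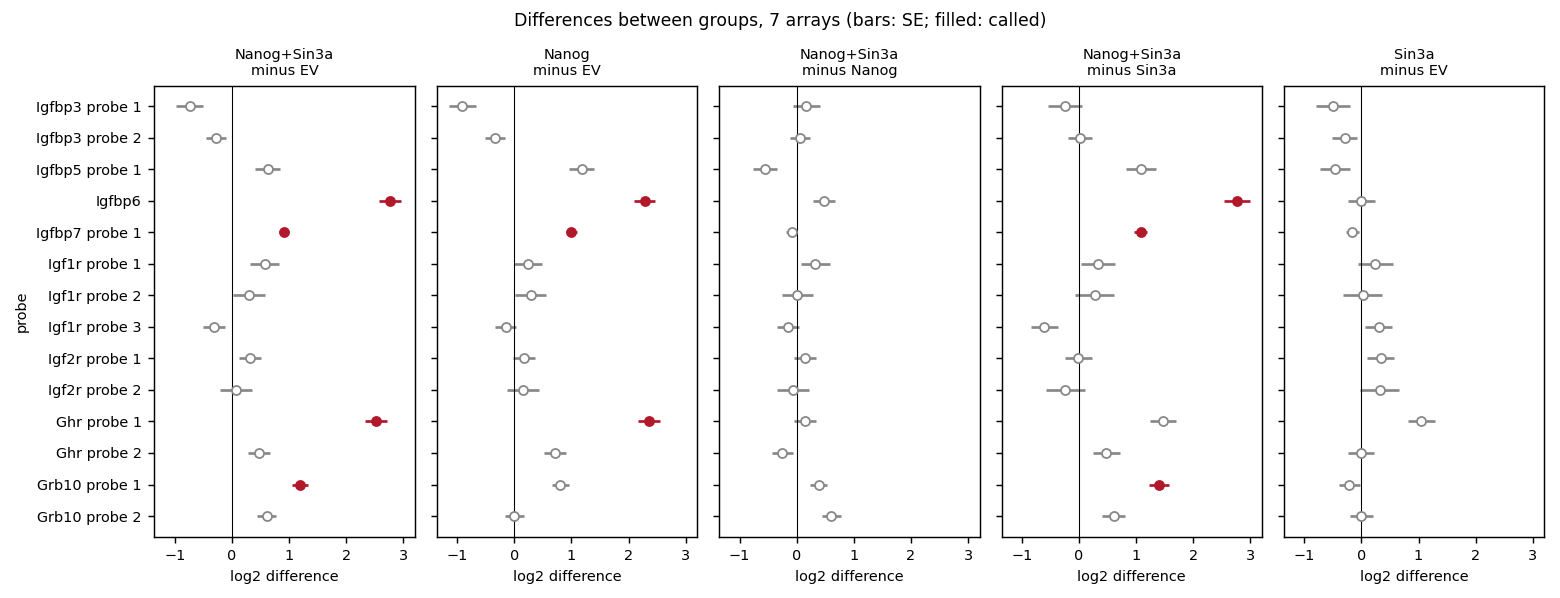
Log2 difference (horizontal axis) of each of the 14 tested IGF axis probes in 5 comparisons, fitted on 7 arrays, with bars of 1 SE. Filled points were called and open points were not, and Igfbp6, Ghr probe 1 and Igfbp7 probe 1 are filled in both comparisons of a Nanog group with EV.

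By comparison, 4 of the 14 probes were called up and 0 down for Nanog+Sin3a against EV, where 2.80% of all tested probes were called up and 3.08% down. The median difference of the 14 was 0.52 on the log2 scale, against 0.00 over all tested probes. The calls were Igfbp6, Igfbp7 probe 1, Ghr probe 1 and Grb10 probe 1. Igfbp6 was tested only through its arrays with Nanog, so it could not be called down against EV or Sin3a. These 4 calls were lost without either Nanog+Sin3a array or either EV array. So was every other call over all tested probes, so the loss is not particular to the 4. Without 1 array the difference of Igfbp6 lay between 2.66 and 2.87 and that of Ghr probe 1 between 2.32 and 2.72. Igfbp7 probe 1 lay between 0.87 and 0.95 and Grb10 probe 1 between 1.06 and 1.31. Without the first Sin3a array 4 of 14 were called, and 1183 of all 18089 probes. With all 8 arrays 0 were called, 27 of all 19673 probes being called then.

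For Nanog against EV 3 of 14 were called up and 0 down, namely Igfbp6, Igfbp7 probe 1 and Ghr probe 1, where 1.08% of all tested probes were called up and 0.959% down. The median was 0.26 among the 14 and 0.00 over all. These calls were lost without any 1 of the Nanog+Sin3a, Nanog or EV arrays, where few or no probes were called over the whole array. With all 8 arrays 0 were called, as over all 19673 probes tested then. Without the first Sin3a array 5 of 14 were called, when Igfbp5 probe 1 and Grb10 probe 1 joined, and 426 of all 18089 probes. Each difference is between 2 group means, so leaving out an array of another group could not move it. Without 1 array Igfbp6 lay between 2.27 and 2.29, Ghr probe 1 between 2.30 and 2.43 and Igfbp7 probe 1 between 0.96 and 1.04. Both EV arrays lay at the floor in Igfbp6, so its range reflects only its 2 Nanog readings. The comparisons of Nanog+Sin3a and of Nanog with EV share the EV arrays.

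Nanog+Sin3a against Nanog asks what Sin3a added to Nanog. The Nanog probe that separated the groups also read lower with Nanog+Sin3a (289.5 and 285.2) than with Nanog (364.8 and 485.8). The Sin3a transgene and the level of Nanog therefore cannot be told apart here. In this comparison limma called 0 of the 14 probes and 0.0162% of all tested probes. At an unadjusted p under 0.05 stood 4 of the 14 and 1937 of all 18558. The median difference was 0.10. Among the 14, Igfbp5 probe 1 stood at -0.55 (SE 0.22) and Igfbp6 at 0.48 (SE 0.19). Grb10 probe 2 has only a bound, at least 0.61, since both Nanog arrays lay at the floor. For Sin3a against EV limma called 0 of 14 and 0% of all tested probes. At an unadjusted p under 0.05 stood 1 of the 14 and 658 of all 18558. Here the Sin3a group was 1 array.

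For Nanog+Sin3a against Sin3a 3 of 14 were called up and 0 down, against 0.604% up and 0.463% down over all tested probes. These were Igfbp6 (log2 at least 2.76, SE 0.23), Grb10 probe 1 (1.40, SE 0.18) and Igfbp7 probe 1 (1.08, SE 0.11), while Ghr probe 1 stood at 1.47 (SE 0.23) and was not called. With a floor of 32, and with 1 probe per symbol, Ghr probe 1 was called too, which made 4. These calls were lost without any 1 of the Nanog+Sin3a, Nanog or EV arrays, as was every other call over all tested probes. With all 8 arrays 0 were called, against 19 of all 19673 probes. The second Sin3a array alone moved Grb10 probe 1 here to 2.89 in the fit of 8 arrays.

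**Figure D3:**
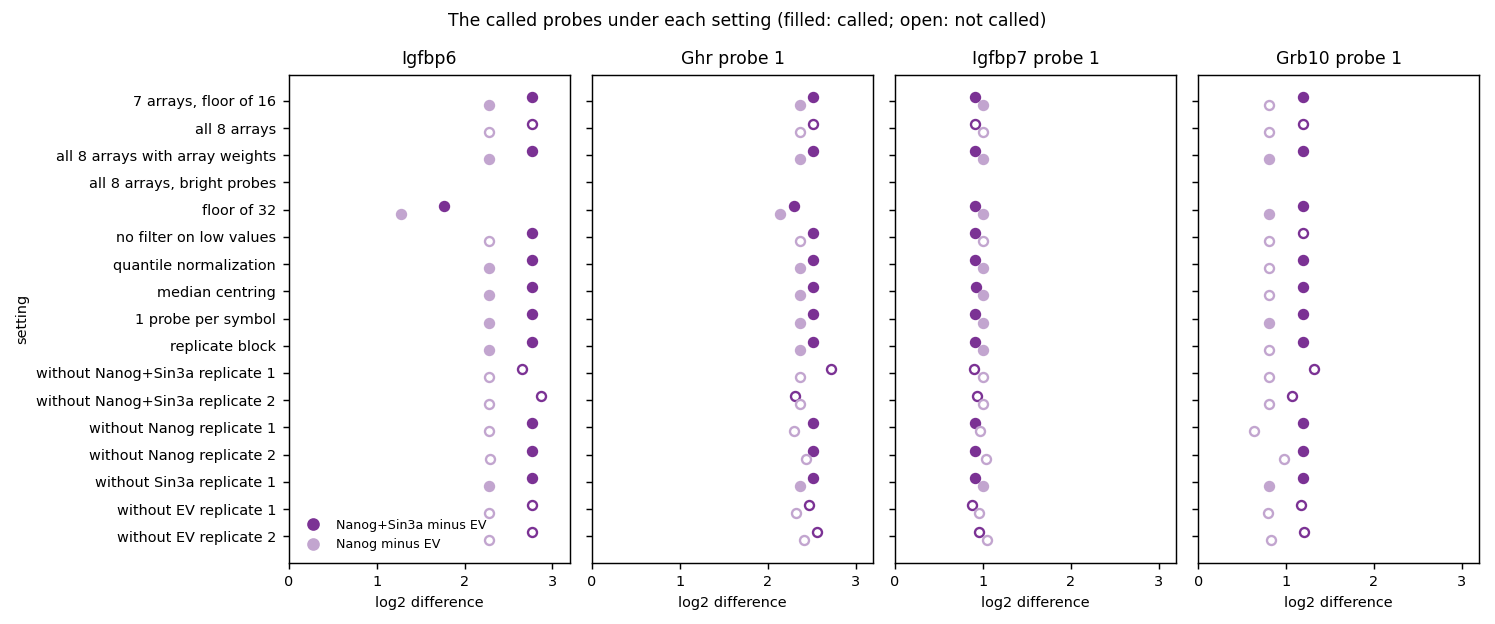
Log2 difference from EV (horizontal axis) of the 4 probes called for Nanog+Sin3a, under each setting (vertical axis), with Nanog+Sin3a in dark and Nanog in light points, filled where called. The differences keep their side of 0 under every setting that could be fitted, while calls are lost in the fit of all 8 arrays, in most fits without 1 array and, for Nanog and for Grb10, without the filter on low values. Fits without 1 array could not have moved them across 0, because the groups do not overlap. The line of bright probes is empty because no IGF axis probe is that bright.

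The genes whose levels followed Igfbp6 and Ghr most closely were looked up over the 7 arrays, among 1097 named probes whose group means ranged over at least 1 on the log2 scale. For Igfbp6 they were Sox18 (Pearson r = 0.997), Rbpms (0.996), Homer2 (0.995), Emp2 (0.995) and Bahcc1 (0.994). For Ghr probe 1 they were Notch4 (0.993), Fcgrt (0.991), Slc7a7 (0.988), 2310011E23Rik (0.984) and Palmd (0.982). The 7 points fall into 4 groups, so these values mostly restate the group means.

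The other genes of the pathway were taken from a list of 56 symbols in 8 roles. It was drawn up by role, but with earlier results of these data already known. The counts and adjusted p values given for it therefore describe the probes and support nothing further. Of these, 47 symbols had 93 probes on the array and 34 had 52 tested probes. For Nanog+Sin3a against EV 4 of the 52 rose, 3 fell and 45 did not pass, with a median of 0.08, where 2.80% of all tested probes were called up and 3.08% down. For Nanog against EV 2 rose, 0 fell and 50 did not pass, with a median of 0.07, where 1.08% of all were called up and 0.959% down. For Nanog+Sin3a against Sin3a 0 rose, 1 fell and 51 did not pass, with a median of -0.08, where 0.604% of all were called up and 0.463% down. Limma called 0 of 52 for Nanog+Sin3a against Nanog and 0 of 52 for Sin3a against EV, with medians of -0.04 and 0.07. At an unadjusted p under 0.05 stood 7 of 52 in each, against 1937 and 658 of all 18558 tested probes.

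Igf2 and Insr had no called probe and are given for their roles, beyond the rule for named genes. Among the ligand genes only Igf2 had a tested probe. It read 8.4 and 33.9 with Nanog+Sin3a, 18.2 and 38.3 with Nanog and 25.1 on the first Sin3a array, against 0.3 and 24.8 with EV, with overlapping groups. No probe of Igf1, Ins2 or Gh was tested, and the Igf1 probes stayed under the floor on the 7 arrays. Insr, the insulin receptor, read 84.7 and 88.6 in its probe 1 with Nanog+Sin3a and 76.0 and 96.0 with Nanog, against 103.0 and 99.7 with EV (log2 -0.23 and -0.25, SE 0.17 each, adjusted p = 0.467 and 0.506).

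Htra1, a secreted serine protease that cleaves IGF binding proteins, passed in both of its probes. Probe 1 read 609.6 and 533.6 with Nanog+Sin3a and 477.7 and 620.8 with Nanog, against 372.9 on the first Sin3a array and 306.1 and 301.7 with EV. It rose by 0.91 with Nanog+Sin3a (SE 0.14, adjusted p = 0.0227) and by 0.84 with Nanog (SE 0.14, adjusted p = 0.0433). Probe 2 rose by 0.74 (SE 0.14, adjusted p = 0.0329) and 0.83 (SE 0.14, adjusted p = 0.0396) in the same comparisons, and all arrays with Nanog lay above those without in both probes.

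For Nanog+Sin3a against EV, Shc1, an adaptor that links receptors to Ras, rose by 0.57 in probe 1 (SE 0.09, adjusted p = 0.0239). Neither of its other tested probes passed, and both have only bounds, while probe 4 was not tested. In probe 3 EV lay at the floor (higher by at least 0.58 with Nanog+Sin3a), and in probe 2 Nanog+Sin3a did (-0.16, lower by at least that much). Mtor probe 2, named beyond the rule for named genes after its values were seen, rose by 0.56 (SE 0.12, adjusted p = 0.0489), and Mtor probe 1 gave 0.10. Pdpk1, the kinase that activates Akt, fell by 0.95 in probe 1 (SE 0.16, adjusted p = 0.0293), while its probe 2 gave -0.06.

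Socs3, a feedback inhibitor of cytokine receptors, read 258.0 and 283.0 with Nanog+Sin3a and 390.7 and 357.6 with Nanog. It read 521.7 on the first Sin3a array but 283.0 on the second, and 486.3 and 527.6 with EV. It fell by 0.91 with Nanog+Sin3a against EV (SE 0.10, adjusted p = 0.0103) and by 0.95 against Sin3a (SE 0.13, adjusted p = 0.0347), and with Nanog it differed by -0.44 (SE 0.10, adjusted p = 0.101). Igf2bp3, whose product binds Igf2 mRNA, fell by 1.08 in probe 2 with Nanog+Sin3a (SE 0.20, adjusted p = 0.0343). The other 3 tested probes of Igf2bp3 lay between -0.89 and -0.59 and had adjusted p values above the threshold. Over all probes limma called 0 for Nanog+Sin3a against EV without any 1 of the Nanog+Sin3a or EV arrays, and 0 for Nanog against EV without any 1 of the Nanog or EV arrays, so none of these calls held there. The highest adjusted p in those fits was 0.188 for Socs3 and 0.23 to 0.295 for the called probes of Shc1, Htra1, Pdpk1 and Igf2bp3 with Nanog+Sin3a, and 0.346 and 0.386 for Htra1 with Nanog. Mtor has no values of its own for fits without 1 array. Without 1 array, the Socs3 call against Sin3a was lost, with a difference between -1.02 and -0.88. Under the other settings, some of which include the second Sin3a array, this difference lay between -0.97 and -0.51.

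**Figure D4:**
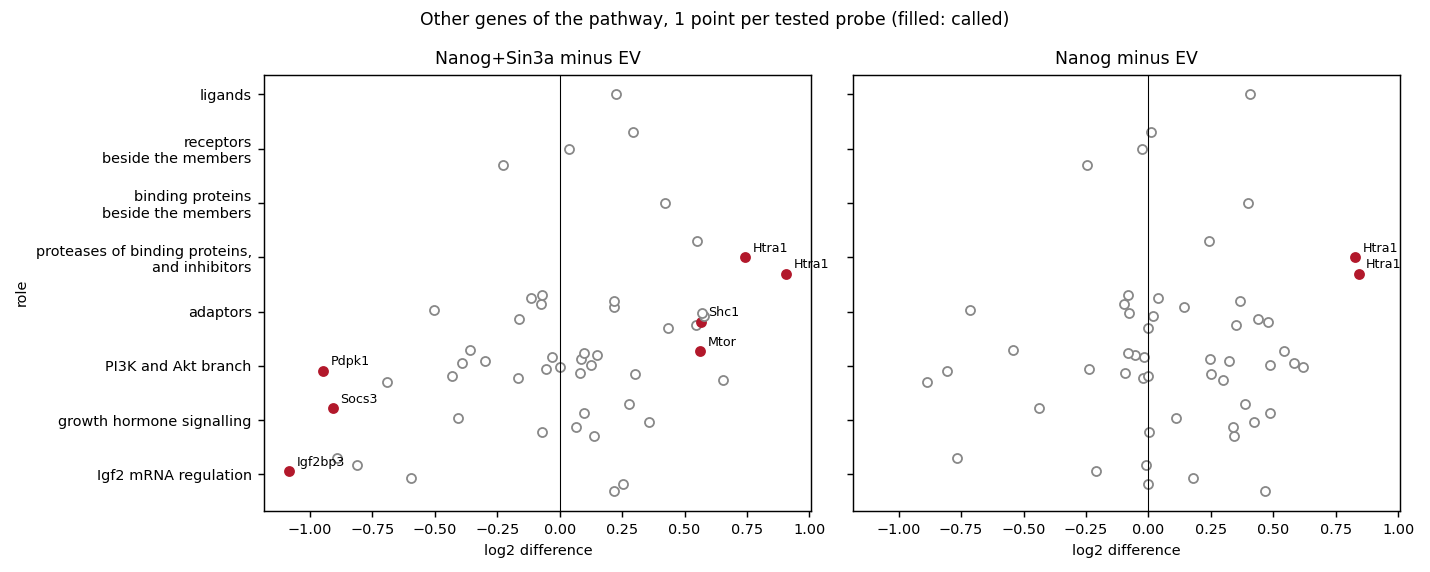
Log2 difference from EV (horizontal axis) of the 52 tested probes of the other pathway genes by role (vertical axis), with Nanog+Sin3a on the left and Nanog on the right. Filled points passed the test and carry their symbol, and Htra1 has 2 filled points in both panels.

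The labelled cell type was checked against marker genes, with the brightest probe of each. Of 12 pluripotency markers 4 (Pou5f1, Dppa5a, Sall4 and Klf4) lay above the floor on all 7 arrays, with Pou5f1 between 903.5 and 1167.3, while Esrrb and Utf1 were at the floor throughout. Sall4 read 88.5 and 98.5 with Nanog+Sin3a and 171.1 and 134.8 with Nanog, against 292.9 on the first Sin3a array and 258.2 and 226.1 with EV. The summed intensity of the 12, most of it Pou5f1, was 1372 and 1583 with Nanog+Sin3a and 1502 and 1648 with Nanog. It was 1783 on the first Sin3a array and 1641 and 1761 with EV, and the groups with and without Nanog overlapped narrowly. Of 10 measured neural stem cell markers 3 were above the floor on all 7 arrays (Nes, Egfr and Vim), and Pax6, Olig2, Fabp7 and Slc1a3 were at the floor. Nes read 57.7 to 75.3 on the 4 arrays with Nanog, against 97.8 to 105.6 on the 3 without, and Egfr 371.7 to 437.4 against 616.5 to 695.7, while Vim read 2625 to 2973 against 2199.9 to 2530. The sum over the 10, most of it Vim, was 3544 and 3387 with Nanog+Sin3a and 3242 and 3327 with Nanog. It was 3452 on the first Sin3a array and 3074 and 3113 with EV. Of 12 markers of mesenchymal cells and fibroblasts 3 were above the floor on all 7 arrays, namely Thy1, Sparc and Fbln1. Thy1 read 341.8 to 508.3 on the 4 arrays with Nanog, against 215.6 to 230.1 on the 3 without. Dcn read 16.6 to 92.6 against -3.1 to 14.3, and Fbln1 overlapped at 30.7 to 67.9 against 36.7 to 41.8. Col1a1 and Pdgfra straddled the floor. The summed intensity over the 12, most of it Sparc (714.2 to 1277 on the 7 arrays), was 1870 and 1827 with Nanog+Sin3a and 1811 and 1901 with Nanog, against 1308 on the first Sin3a array and 1169 and 1124 with EV. This sum was higher on the same arrays as Igfbp6, Igfbp7, Ghr and Grb10, while Col1a2, Col3a1, Lum, Postn, Pdgfrb and Tagln were at the floor on all 7 arrays. The part of these marker differences in the IGF axis values was not tested. The sum over 6 primitive endoderm markers, nearly all Dab2 (722.6 to 1371 on the 7 arrays), was 833.6 and 818.1 with Nanog+Sin3a and 1109 and 932.6 with Nanog, against 1272 on the first Sin3a array and 1451 and 1345 with EV, with Gata4, Gata6, Sox17 and Lama1 at the floor. The sum over 6 epithelial markers, nearly all Krt8 (816 to 1199), was 989.7 and 1321 with Nanog+Sin3a and 907.4 and 922.6 with Nanog, against 1156 on the first Sin3a array and 1237 and 1239 with EV.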

How the data were processed

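RNA was measured on Illumina bead arrays in 8 samples of 4 groups. The deposited values are linear intensity per probe. The submitters' processing notes name GenomeStudio, with version and settings not given in the sources used here. They ran from -24 to 14965, with 47.3% to 47.7% of each array below 0, so the authors had subtracted a background. The lowest and highest values were the same on all 8 arrays, so the arrays had already been equalised, and no further normalization was applied. Values under 16 were raised to 16 before log2 was taken.

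Each probe was its own feature. Probes above the floor in at least 2 of 7 arrays were tested (18558 of 45281) in R 4.3.3 with limma 3.58.1, by lmFit and eBayes with an intensity trend, 1 coefficient per group, 3 residual degrees of freedom, two-sided, with Benjamini-Hochberg adjustment over all tested probes. A group wholly at the floor shows no spread, which lowers the standard error of such probes. Of the probes, 34885 carried 1 symbol, 18 carried several and 10378 had none, and a RefSeq table (34807 matched by gene ID) changed 0. Named genes were all tested probes of the 10 genes, and up to 6 called probes with the largest change of the pathway list in each comparison. Members, lists and the left-out array were chosen with earlier results of these data known. Deviations of arrays with the same replicate number correlated between groups at -0.0854 to -0.0133, so the numbers were not taken as pairs. The procedure was tested on simulated data.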

Additional observations from a re-analysis of the deposited data

Results flagged for a closer look

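The second Sin3a array, which entered only the alternative fits of 8 arrays, read above the floor and above both EV arrays in 4 probes of the 10 genes. Igfbp7 probe 1 read 282.1 there, against 231.9 and 245.4 with EV. Igfbp6 read 54.0, against 5.0 and 11.7 with EV. Igfbp4 probe 1 read 74.2, against -11.1 and 0.9 with EV, and Igfbp7 probe 3 read 64.0, against -12.7 and -13.7 with EV. The last 2 stood at no more than 19.2 on any of the other 7 arrays. In other probes the second Sin3a array read below both EV arrays. Among these were Grb10 probe 1 (28.4), Ghr probe 1 (-9.8), Igf1r probes 1 and 2 (-6.7 and -8.8) and Igf2r probes 1 and 2 (-0.7 and -6.1). In the middle intensity range, 78.8% of probes lay over 1 (log2) apart between this array and the first Sin3a array.

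In Grb10 probe 1 the arrays with Sin3a lay on opposite sides of their counterparts with and without Nanog, though neither difference was called. Both Nanog+Sin3a arrays (540.8 and 642.7) lay above both Nanog arrays (508.9 and 401.9), and the first Sin3a array (223.8) lay below both EV arrays (255.6 and 261.6). The difference with Nanog minus that without was 0.59 on the log2 scale, the part without Nanog resting on 1 Sin3a array, and it was not tested.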

How the results depend on the processing

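No called difference of a probe of the 10 genes changed sign under any setting that could be fitted. Fits without 1 array could not have changed a sign, because the groups of each called probe did not overlap. They are therefore no check of the sign. The counts of called IGF axis probes were 4 for Nanog+Sin3a against EV, 3 for Nanog against EV, 0 for Nanog+Sin3a against Nanog, 0 for Sin3a against EV and 3 for Nanog+Sin3a against Sin3a. Without 1 array in turn, no call was left over all tested probes wherever a group of the comparison lost an array. The loss of calls in those fits is therefore not particular to the 10 genes. With all 8 arrays the counts were 0 for Nanog+Sin3a against EV, 0 in both Nanog against EV and Nanog+Sin3a against Sin3a. With array weights they were 7 of 15 in Nanog against EV and 0 in Nanog+Sin3a against Sin3a. The weights were equal within each group, at 0.0865 for both Sin3a arrays and 3.99 for both EV arrays. They did not single out the second Sin3a array. A floor of 32 left 11 probes of the 10 genes tested, and 1 probe per symbol left 8. With 1 probe per symbol 350 of all 12987 probes were called for Nanog against EV, and in both settings the count of IGF axis probes was 5. Without the filter on low values it was 0 in both Nanog against EV and Nanog+Sin3a against Sin3a, where 22484 probes at the floor on all 7 arrays were given a p of 1 and enlarged the adjustment. With the replicate number as a block the count was 1 for Nanog+Sin3a against Sin3a and was the main value in the other comparisons, and over all probes it was 573, 196 and 34 for Nanog+Sin3a against EV, Nanog against EV and Nanog+Sin3a against Sin3a, where the fit without the block called 1090, 378 and 198. Over all probes the counts with all 8 arrays were 27, 0 and 19, with array weights 1843, 972 and 0, with a floor of 32 they were 1451, 601 and 420, and with no filter 105, 1 and 0 in the same comparisons. Quantile normalization and median centring changed no count of IGF axis probes, but the arrays had already been equalised and these settings barely moved any value, so they are no check of stability. Bright probes gave no value, as no IGF axis probe is bright. The causes of these changes were not tested, and low signal over background limits every probe near the floor.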
